A study of Bombyx mori with 12 samples.

Results

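The energy-producing genes of the silkworm ovary were followed here through 2 pupal stages in 2 lines. The set comprised every row of the deposited expression table whose product description held a word for the respiratory chain, glycolysis or the citric acid cycle (such as "cytochrome c", "ATP synthase", "pyruvate" or "citrate"). These words found 35 of the 15745 rows, of which 30 belong to the 3 pathways. The other 5 share a word with them but name another process. They are 3 subunits of the vacuolar proton pump, hydroxypyruvate isomerase and 4-hydroxyphenylpyruvate dioxygenase. Grouped by role, 4 rows belong to complex I, 1 to complex III, 2 to complex IV, 8 to complex V, 8 to glycolysis, 1 to pyruvate metabolism (pyruvate carboxylase) and 6 to the citric acid cycle. The words for succinate dehydrogenase, hexokinase and aconitase found 0 rows each, so complex II was not analysed here.

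Glycolysis splits glucose into pyruvate in the cytosol, and the citric acid cycle oxidises the carbon of pyruvate in the mitochondrial matrix. The electrons released pass along complexes I to IV of the inner mitochondrial membrane to oxygen, which pumps protons, and complex V, the ATP synthase, uses the returning protons to make ATP. In insects the growing oocyte takes up yolk and is supplied with mitochondria and RNA by nurse cells, so ovaries hold both the machinery at work and maternal stores of it.

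Ovaries of female Bombyx mori pupae were compared between a line labelled WT and a line labelled TBH, at pupal stages labelled P2 and P4, with 3 samples in each of the 4 groups. The title of the series speaks of hyperproteinemia, a raised protein content of the blood, in a genetic silkworm model, and its design text asks which ovarian genes that state affects. The labels spell out neither TBH nor an allele, and name no treatment. Total RNA was sequenced on an Illumina NovaSeq instrument. The labels do not say whether a sample pools pupae or came from separate animals, so the p-values measure only the spread between these samples, which may be partly technical. In whole ovaries, fewer cells of a type and less RNA per cell cannot be told apart.

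The deposited values are normalized, with a unit that the sources do not name, and are called listed values below. Whether they are scaled by gene length is not known, so levels were compared mainly between samples. Sums, ratios and shares over several genes were read between samples too. Where levels of different genes are set side by side below, gene length may enter. A change was tested on the log2(value + 1) scale with limma over the 5235 genes that reached a listed value of 1 in at least 3 samples, and called where the p-value, adjusted over all these genes after Benjamini and Hochberg, was under 0.05. Log2 changes carry their standard error. Means carry the SD of 3 samples.

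The libraries did not spread evenly. Per sample, listed values summed to between 468558.9 and 664133.6 and between 6399 and 7772 genes were above 0. WT P2 held the least alike replicates, with a lowest correlation of 0.838 between its samples across genes against 0.901 to 0.926 in the other groups. TBH P4 replicate 3 stood apart from the other two of its group. The members also spread most in WT P2. The median coefficient of variation of the tested members within a group was 39.8% in WT P2, 13.4% in TBH P2, 8.49% in WT P4 and 21.3% in TBH P4. WT P2 replicate 3 was the lowest of its group in 16 of 26 members and TBH P2 replicate 1 in 17, and TBH P4 replicate 3 was the highest in 18. Calls that end or appear when WT P2 replicate 2 or TBH P4 replicate 3 is left out are given both ways.

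The ovary label was checked with 7 listed ovary genes, of which 3 were tested. VMP23, a vitelline membrane protein of the egg coat, ran from 3.16 to 1210.4. The egg coat genes VMP25, VMP90 and 5H4 reached at most 0.37, 0.12 and 0.62. The summed value of the 7 genes was 13.6 to 31.2 in WT P2, 9.79 to 16.0 in TBH P2, 540.0 to 1212 in WT P4 and 408 to 509 in TBH P4. At P4 this sum was mostly VMP23. NANOSO, a germline gene, was listed at 0 in all samples. Other tissues were represented too, and their marker sums are given beside the results they move with.

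Of the 35 members, 26 were tested, 23 of them from the 3 pathways. Among the 9 untested rows, 4 were listed at 0 in all samples: 1 NADH-ubiquinone reductase of complex I, 1 fructose-bisphosphate aldolase, the isocitrate dehydrogenase named IDH, and vacuolar subunit D. A further 4 were above 0 in 1 to 3 samples only: enolase, a further ATP synthase beta row (BGIBMGA003901), pyruvate carboxylase and a pyruvate kinase. The highest value of any untested member was 1.83, in 4-hydroxyphenylpyruvate dioxygenase. Enolase was at 0 in 9 samples and at most 0.1 in the others. It is a glycolytic enzyme that cells generally use, so a value at or near 0 in this table may be a failed estimate. A value of 0 is given only as listed at 0.

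**Figure D1:**
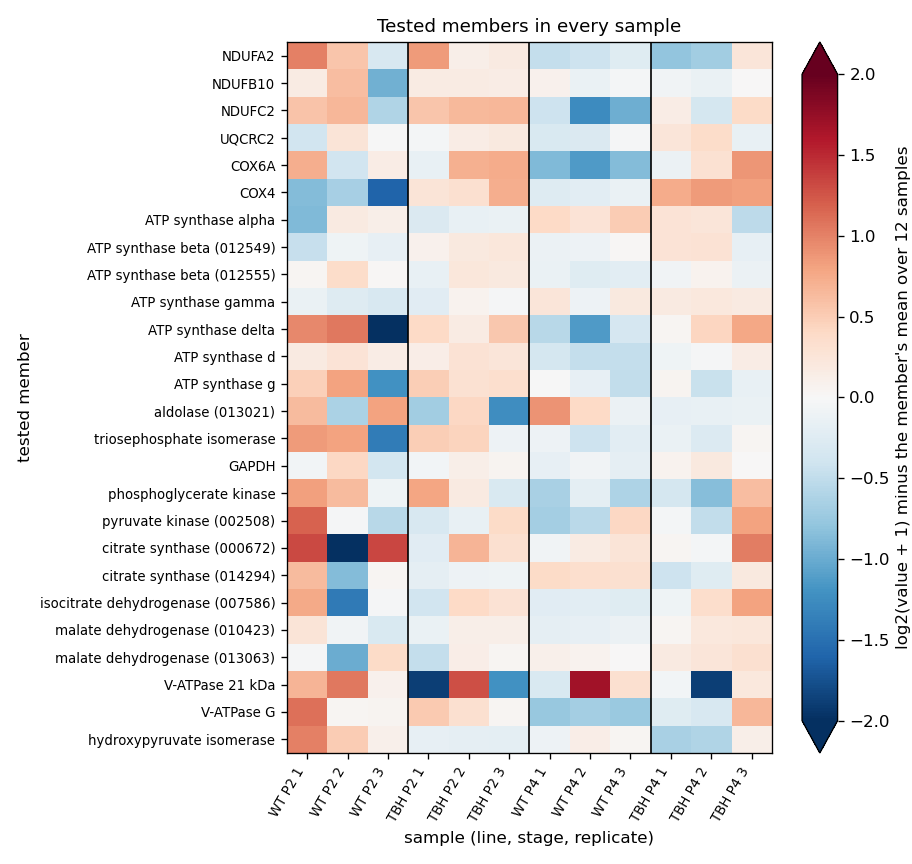
Colour gives log2(value + 1) of each of the 26 tested members (rows) in each of the 12 samples (columns, by line, stage and replicate) minus the member's own mean; colours end at 2 and values beyond are drawn at the end colour. COX4 is blue in WT P2 and red in both TBH groups, and the 3 WT P2 columns differ most among themselves.

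Cytochrome c oxidase, complex IV, passes electrons to oxygen at the end of the chain, and it held the 1 member that was called between the lines. Its subunit IV (BGIBMGA013680, here COX4), a nuclear-encoded subunit through which ATP is known to inhibit the enzyme in mammals, was higher in TBH ovaries at both stages. In WT P2 its listed values were 125, 143 and 74.6, and in TBH P2 they were 272, 284 and 377. In WT P4 they were 191, 197 and 208, and in TBH P4 381, 410.1 and 402. No sample of one line overlapped the other at either stage, and within each line no P2 sample reached the lowest P4 sample. The group means were 114 ± 35.6 in WT P2, 311 ± 57.4 in TBH P2, 198 ± 8.61 in WT P4 and 398 ± 14.9 in TBH P4 (SD, n = 3 each).

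At P2 the TBH mean of COX4 was 2.72 times the WT mean, a log2 change of 1.47 ± 0.24 (limma, adjusted p = 0.00855). At P4 it was 2.01 times the WT mean, a log2 change of 1.00 ± 0.24 that missed the threshold (limma, adjusted p = 0.0621). The change at P4 lay 0.82 above the median of all tested genes, which was itself shifted by 0.18. From P2 to P4 the mean of COX4 was 1.74 times as high in WT (log2 change 0.84 ± 0.24, limma, adjusted p = 0.0706) and 1.28 times as high in TBH. Without WT P2 replicate 2 this WT change was 1.03 and passed (limma, adjusted p = 0.0270). The P2 call was lost when only WT P2 and TBH P2 entered the fit (limma, adjusted p = 0.172). Without WT P2 replicate 2 and TBH P4 replicate 3 together the log2 change at P2 was 1.66 and passed (limma, adjusted p = 0.00824).

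The second complex IV subunit, 6A (BGIBMGA005511, here COX6A), was ordered differently over the groups. This small nuclear-encoded subunit is known from mammals to take part in regulating the enzyme. Its listed values were 968, 444 and 643 in WT P2 and 523, 957 and 978 in TBH P2. They were 317, 265 and 319 in WT P4 and 537, 722 and 1079 in TBH P4. The lines overlapped at P2 and were apart at P4, where WT was low in all 3 samples. The TBH mean was 1.20 times the WT mean at P2 and 2.60 times at P4, where the log2 change of 1.32 ± 0.34 missed the threshold (limma, adjusted p = 0.0889). Without TBH P4 replicate 3, its highest sample, the change was 1.06 (limma, adjusted p = 0.277). Between the stages of WT the mean at P4 was 0.438 times that at P2 (log2 change -1.12 ± 0.34, limma, adjusted p = 0.0920), while in TBH it was 0.952 times. Without WT P2 replicate 2 the WT change was -1.40 and passed (limma, adjusted p = 0.0390).

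The balance between both complex IV subunits can be read within each sample. The ratio of COX4 to COX6A listed values was 0.129, 0.323 and 0.116 in WT P2 and 0.520, 0.297 and 0.385 in TBH P2. It was 0.601, 0.744 and 0.650 in WT P4 and 0.709, 0.568 and 0.372 in TBH P4. The ratio was thus higher in every WT P4 sample than in any WT P2 sample, while the TBH stages overlapped.

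Upstream of complex IV, the members of complexes I and III did not pass the threshold in any comparison. Complex I takes electrons from NADH, and the tested members are small accessory subunits. The first, NDUFC2 (BGIBMGA010351), had values of 259, 276 and 114 in WT P2, 255, 273 and 276 in TBH P2, 130.0, 72.5 and 88.2 in WT P4, and 193, 136 and 227 in TBH P4. At P4 the lines did not overlap and the TBH mean was 1.91 times the WT mean (log2 change 0.94 ± 0.34, limma, adjusted p = 0.255). In WT its P4 mean was 0.448 times the P2 mean (log2 change -1.09 ± 0.34, limma, adjusted p = 0.0965), but WT P2 replicate 3 lay inside the WT P4 range. In TBH the P4 samples all lay under the P2 samples (log2 change -0.56 ± 0.34, limma, adjusted p = 0.606).

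A second complex I subunit, NDUFA2 (BGIBMGA003301), was listed at 247, 180 and 97.5 in WT P2, 220.0, 133 and 138 in TBH P2, 87.4, 91.0 and 103 in WT P4, and 70.2, 74.6 and 144 in TBH P4. Its groups overlapped in every comparison. It had the smallest p of the members between the stages of TBH, where the log2 change was -0.80 ± 0.37 (limma, adjusted p = 0.467). The beta subcomplex subunit NDUFB10 (BGIBMGA007267) had values of 300.1, 411 and 138 in WT P2, 302, 302 and 297 in TBH P2, 284, 244 and 261 in WT P4, and 256, 246 and 270.1 in TBH P4. The lines overlapped at both stages, and the spread in WT P2 exceeded that of all other groups.

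Complex III, which hands electrons to cytochrome c, was represented by the core protein UQCRC2 (BGIBMGA011710). Its values were 169, 263 and 218 in WT P2, 214, 244 and 254 in TBH P2, 177, 179 and 218 in WT P4, and 260.4, 286 and 199 in TBH P4. The groups overlapped in all 4 comparisons.

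**Figure D2:**
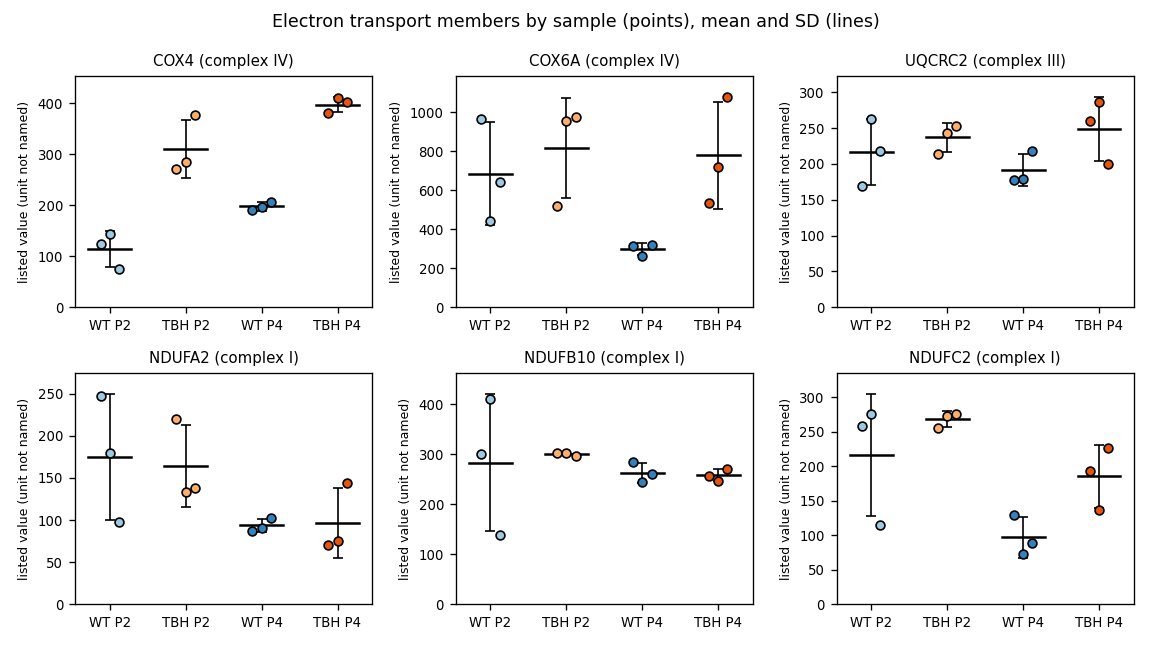
Listed values (unit not named) of the 6 tested electron transport members in each sample (points) of the 4 groups, with the mean and SD (lines), on linear axes from 0. COX4 separates the lines at both stages with means of 114 and 311 at P2 and 198 and 398 at P4; the means of COX6A and NDUFC2 are lowest in WT P4, at 300.3 and 96.9.

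ATP synthase, complex V, had 7 tested rows covering its catalytic head and its stalk and membrane parts. The alpha and beta subunits form the ring that makes ATP, gamma is the rotating shaft, delta belongs to the central stalk in mitochondria, d to the side stalk and g to the membrane part. Only subunit d passed the threshold, and only between the stages of WT.

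Subunit d (BGIBMGA011936) was listed at 1479, 1577 and 1446 in WT P2 and at 1016, 936 and 935 in WT P4. In TBH it was 1431, 1589 and 1533 at P2 and 1226, 1285 and 1446 at P4. Every WT P4 sample lay under all the others, and the TBH stages overlapped. The WT mean fell from 1501 ± 68.0 to 963 ± 46.4, that is to 0.641 times (log2 change -0.64 ± 0.14, limma, adjusted p = 0.0314). Since the median of all tested genes moved by -0.42 in this comparison, the change relative to it was -0.22. The TBH mean at P4 was 1.37 times the WT mean (log2 change 0.45 ± 0.14, limma, adjusted p = 0.174). The stage call was lost without WT P2 replicate 1 (limma, adjusted p = 0.0570), and without WT P4 replicate 1, 2 or 3 (limma, adjusted p = 0.0869, 0.131 and 0.127).

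No catalytic subunit passed the threshold. Alpha (BGIBMGA001853) was 1951, 4074 and 3876 in WT P2, 2939.7, 3228 and 3270.0 in TBH P2, 4714, 4335 and 5134 in WT P4, and 4326, 4249 and 2501 in TBH P4. The WT P4 samples lay above every other sample, with the nearest 2 samples at P4 being 4335 in WT and 4326 in TBH. At P4 the TBH against WT log2 change was -0.40 ± 0.29 (limma, adjusted p = 0.729).

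The name ATPSYN-BETA is carried by 2 rows in the table but by 1 gene in RefSeq, so reads may have been shared between them and the split is uncertain. The first beta row (BGIBMGA012555) was 1321, 1655 and 1298 in WT P2, 1161, 1502 and 1474 in TBH P2, 1169, 1090.0 and 1108 in WT P4, and 1220.5, 1343 and 1183 in TBH P4. At P4 every TBH sample exceeded every WT sample, and the stages of WT did not overlap. The second beta row (BGIBMGA012549), described after its values were seen, was 562, 723 and 690.2 in WT P2 and 820.0, 879 and 907 in TBH P2, with every TBH sample above WT. At P4 it was 713, 721 and 780.2 in WT and 931, 941 and 687 in TBH, where replicate 3 lay under the WT range. Its share of both rows was 29.8%, 30.4% and 34.7% in WT P2, 41.4%, 36.9% and 38.1% in TBH P2, 37.9%, 39.8% and 41.3% in WT P4, and 43.3%, 41.2% and 36.7% in TBH P4. The WT P2 samples had the lowest shares of all 12.

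The other subunits were gamma, delta and g. Gamma ranged from 335 to 382 in WT P2 and from 359 to 440.3 in TBH P2, and at P4 from 391 to 496 in WT and 474 to 485 in TBH. It was above P2 in every P4 sample of both lines, with neither change past the threshold. Delta ranged from 14.5 to 162 in WT P2 and from 34.8 to 61.2 in WT P4, against 79.3 to 132 in TBH P4. Subunit g ran from 147 to 596 in WT P2, and its lines overlapped at both stages.

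**Figure D3:**
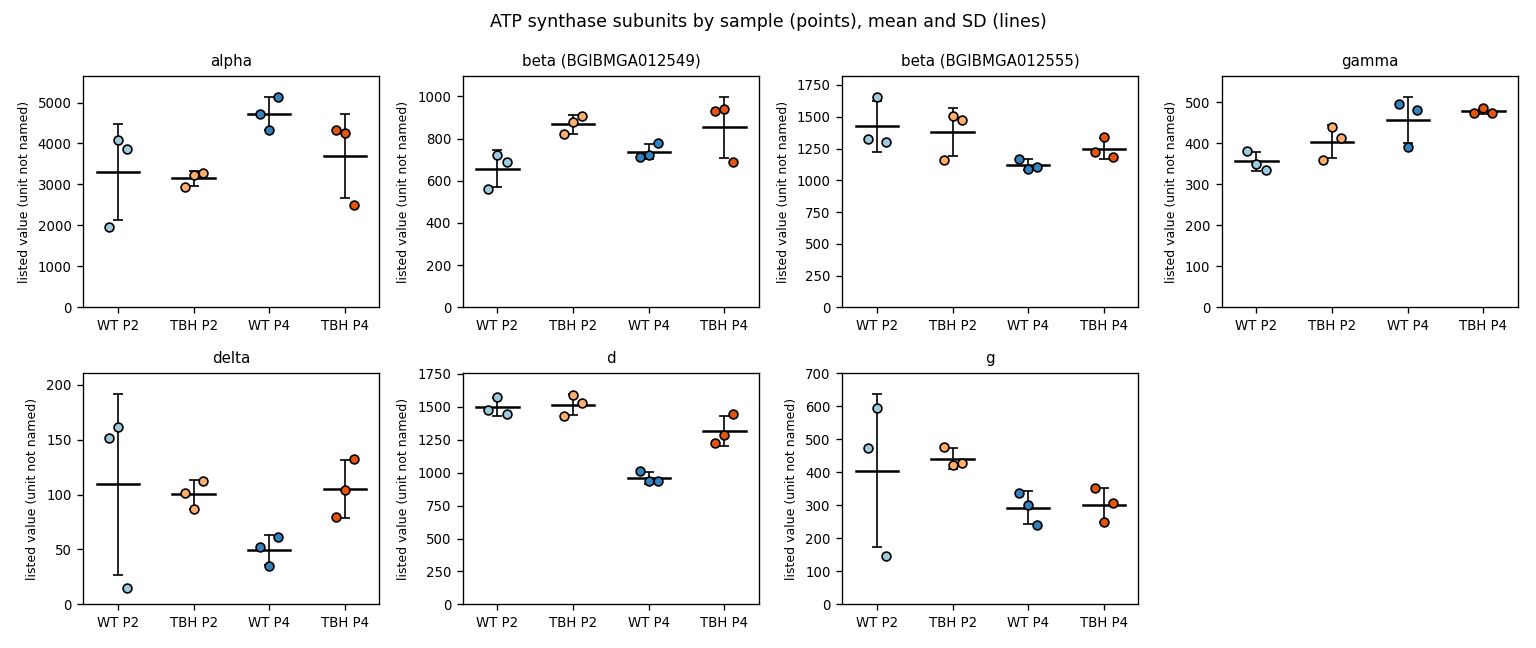
Listed values (unit not named) of the 7 tested ATP synthase rows in each sample (points) of the 4 groups, with the mean and SD (lines), on linear axes from 0. Subunit d is lowest in WT P4 (mean 963) and highest at P2 in both lines (means 1501 in WT and 1518 in TBH).

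No glycolytic member passed the threshold in any comparison. Glyceraldehyde-3-phosphate dehydrogenase (BMGAPDH, BGIBMGA007490), the step that yields NADH, was 1380.1, 1908 and 1113 in WT P2, 1384, 1554 and 1488 in TBH P2, 1277, 1357 and 1265 in WT P4, and 1509, 1630.4 and 1441 in TBH P4. At P4 TBH lay above WT in all samples, with a log2 change of 0.23 ± 0.19 (limma, adjusted p = 0.769). The tested fructose-bisphosphate aldolase (BGIBMGA013021), which cleaves the hexose, was 315, 130.1 and 355 in WT P2, 125, 270.2 and 85.2 in TBH P2, 379, 269 and 186 in WT P4, and 180.1, 183 and 184 in TBH P4. At P4 TBH lay under WT in all samples, the nearest 2 samples being 186 and 184 (log2 change -0.54 ± 0.46, limma, adjusted p = 0.769). Triosephosphate isomerase (BGIBMGA000559), which interconverts the cleaved trioses, was 79.6, 76.6 and 15.9 in WT P2, 61.6, 59.4 and 40.7 in TBH P2, 40.4, 32.3 and 37.5 in WT P4, and 39.6, 35.8 and 44.7 in TBH P4. Its lines overlapped at both stages. Phosphoglycerate kinase and the tested pyruvate kinase, the steps that make ATP directly, ranged from 15.1 to 49.7 and from 1.27 to 7.19 over all samples.

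In the citric acid cycle too, no member passed the threshold. Malate dehydrogenase closes the cycle, and its row named MDH (BGIBMGA010423) was 469.9, 372 and 315 in WT P2, 356, 423 and 425 in TBH P2, 344, 348 and 359.8 in WT P4, and 399.8, 453 and 459 in TBH P4. At P4 every TBH sample exceeded every WT sample (log2 change 0.31 ± 0.18, limma, adjusted p = 0.601). The second malate dehydrogenase (BGIBMGA013063) was 64.5, 32.4 and 85.8 in WT P2, 46.7, 71.5 and 67.1 in TBH P2, 70.5, 68.3 and 65.5 in WT P4, and 74.2, 77.7 and 82.2 in TBH P4. It too was higher in every TBH sample at P4, by a log2 change of 0.19 ± 0.31. Citrate synthase (BGIBMGA000672), which starts the cycle, was 68.0, listed at 0, and 68.6 in WT P2, 22.5, 43.0 and 33.5 in TBH P2, 25.3, 29.99 and 32.0 in WT P4, and 27.3, 25.9 and 55.3 in TBH P4. Because of the value listed at 0, no mean is given for WT P2. The fit shares its spread over all 12 samples, so every log2 change of this row between 2 groups has a standard error of 1.26. Between the WT stages the change was 0.83 (limma, adjusted p = 0.735), and without WT P2 replicate 2 and TBH P4 replicate 3 it was -1.21, the opposite direction, and passed (limma, adjusted p = 0.0169). The second citrate synthase (BGIBMGA014294) reached at most 1.81. The NADP-dependent isocitrate dehydrogenase (BGIBMGA007586) ranged from 12.5 to 12.7 in WT P4 and from 14.1 to 26.8 in TBH P4.

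Levels were also summed over all rows of a pathway, where the rows with the highest listed values weigh most. The respiratory chain rows summed to 9444 ± 1270 in WT P2, 9958 ± 766 in TBH P2, 9493 ± 563 in WT P4 and 9964 ± 798 in TBH P4, and these sums overlapped between all groups. As a share of all listed values of a sample they did not overlap at P4, where they were 1.74%, 1.46% and 1.67% in WT and 1.79%, 1.86% and 1.81% in TBH. Alpha, the largest row, was highest in WT P4. Its means were 3300 in WT P2, 3146 in TBH P2, 4728 in WT P4 and 3692 in TBH P4. The group means of the sums were ordered differently, and so large a row can hide changes of the others. The glycolytic rows summed to 1835 ± 325, 1726 ± 166, 1637 ± 110 and 1779 ± 77.2 in the same order. At P4 they were 1715, 1684 and 1511 in WT and 1753, 1866 and 1719 in TBH, without overlap, while as shares of all listed values they overlapped. BMGAPDH alone had P4 means of 1300 in WT and 1527 in TBH. The citric acid cycle rows summed to 454, 461 and 471 in WT P4 and 516, 576 and 625 in TBH P4. These groups did not overlap either, as sums or as shares, and the smallest exact permutation p that 3 samples against 3 can give is 0.1. The row named MDH alone had P4 means of 351 in WT and 437 in TBH.

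**Figure D4:**
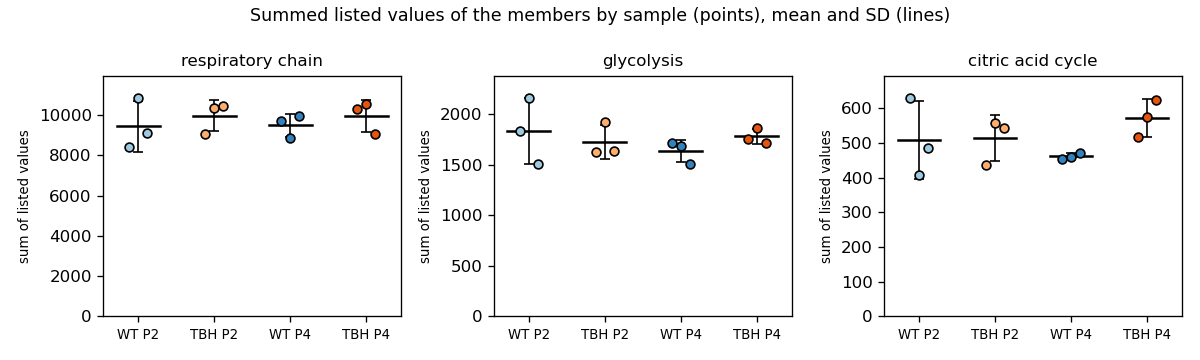
Sum of listed values of the members of each pathway in each sample (points) of the 4 groups, with the mean and SD (lines), on linear axes from 0. The respiratory chain means lie between 9444 and 9964. At P4 the lines are apart in glycolysis (highest WT 1715, lowest TBH 1719) and in the citric acid cycle (highest WT 471, lowest TBH 516).

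Of the members outside the 3 pathways, vacuolar subunit G (BGIBMGA013678), part of the stalk of the pump that acidifies organelles, was 669, 319 and 323 in WT P2, 450.4, 391 and 319.7 in TBH P2, 184, 193 and 185 in WT P4, and 264, 248 and 492 in TBH P4. WT P4 was under every other sample. The stage difference of WT missed the threshold (log2 change -1.12 ± 0.32, limma, adjusted p = 0.0756). Hydroxypyruvate isomerase (HYI, BGIBMGA002349) was 82.1, 57.6 and 43.2 in WT P2, 35.8, 35.3 and 35.0 in TBH P2, 37.4, 44.2 and 41.4 in WT P4, and 25.3, 26.1 and 43.9 in TBH P4. TBH lay under WT in every sample at P2 (log2 change -0.72 ± 0.28, limma, adjusted p = 0.515). The vacuolar 21 kDa proteolipid subunit (BGIBMGA000231) ran between a value listed at 0 and 10.9, and was at 0 in 2 samples.

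Counted over the set, TBH against WT at P2 gave 1 member higher (COX4), 0 lower and 25 that did not pass. At an unadjusted p under 0.05 limma had 2 higher and 1 lower, or 11.5% of the members beside 7.05% of all tested genes. Of all tested genes, 1.49% were called. The median log2 change was 0.09 over the 26 members and -0.01 over all tested genes. Groups did not overlap in 2 members that were higher, COX4 and the second beta row, against 4.76% of all tested genes, and in 1 that was lower, HYI, against 4.16%. The marker sums of muscle, fat body and hemolymph, hemocytes, cuticle and trachea, and silk gland each overlapped between the lines at P2. Of the 9 tested fat body and hemolymph genes, however, 2 were higher in TBH, 30K protein 14 (log2 change 2.26) and 30K protein 12 (2.54), and 2 lower, vitellogenin (-3.54) and storage protein SP1 (-2.45). 30K protein 14 met the filter through its TBH P2 samples (7.48, 6.51 and 3.92), beside 0.29, 0.30 and 0.69 in WT P2. All 15 listed genes were above 0 in at least 1 sample, and their summed value was 134 to 289 in WT P2 and 126 to 273 in TBH P2. Their part in the P2 differences of the members was not tested.

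At P4 limma called 0 of the 26 members in either direction, with 5 higher and 0 lower at an unadjusted p under 0.05, or 19.2% beside 11.7% of all tested genes. By the adjusted p 1.93% of all tested genes were called, 59 higher and 42 lower (60 and 79 with quantile normalization). The median was 0.21 over the members and 0.18 over all tested genes. Without overlap, 11 members were higher in TBH, or 42.3% of the 26, where 14.0% of all tested genes were. They were NDUFC2, both complex IV subunits, ATP synthase beta (BGIBMGA012555), delta and d, BMGAPDH, isocitrate dehydrogenase, both malate dehydrogenases and vacuolar subunit G. Lower without overlap were 3 (alpha, aldolase and the second citrate synthase), or 11.5%, against 6.72%. The second citrate synthase met the filter only through its WT P4 samples (1.37, 1.3 and 1.28), so the filter favoured its being lower in TBH. Elsewhere it reached 1 only in WT P2 replicate 1 (1.81) and TBH P4 replicate 3 (1.08). The background of all tested genes was not matched to the members, whose median of mean listed values was 223 beside 6.85 over all tested genes. The part of this gap in the shares was not tested, so the shares are not read as a trait of the pathways. With quantile normalization the higher count was 7, or 26.9% against 10.2%. Without WT P2 replicate 2 and TBH P4 replicate 3 it was 13, or 50% against 16.5%.

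The muscle, hemocyte and ovary marker sums did not overlap between the lines at P4. The 5 listed muscle genes, 2 of them tested, summed to 1473 to 2074 in WT P4 and to 721 to 1201 in TBH P4, with tropomyosin-1 listed at 0 in all samples. The 3 hemocyte genes, 1 of them tested, summed to 40.2 to 44.6 in WT P4 and to 21.4 to 25.2 in TBH P4, with hemocytin listed at 0. None of these tested genes passed (limma, adjusted p = 0.1165 for MLC-2, 0.4075 for muscle actin A1 and 0.2574 for phenoloxidase subunit 2). The ovary sum was 540.0 to 1212 in WT P4 and 408 to 509 in TBH P4, and was mostly VMP23 (534, 1210.4 and 608 in WT, 504, 401 and 442 in TBH). The chorion factor CBZ went the other way, at 0.03, 0.51 and 2.72 in WT and 5.93, 7.49 and 17.8 in TBH. The chorion factor C/EBP was lower in TBH by a log2 change of -1.41. These 3 tested ovary genes did not pass. Of 48 tested cuticle and trachea genes, 2 were called higher in TBH and 2 lower. The part of all these markers in the P4 differences of the members was not tested.

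Between P2 and P4 of WT ovaries, 0 members were called higher and 1 lower (subunit d), with 1 higher and 5 lower at an unadjusted p under 0.05 in limma, which is 23.1% beside 22.4% of all tested genes. Of all tested genes, 4.11% were called, 53 higher and 162 lower, a split that became 111 and 85 with quantile normalization. The median was -0.15 over the members against -0.42 over all tested genes, and 17 of 26 members lay above the latter. Higher without overlap were 3 members (COX4, alpha and gamma), against 4.41% of all tested genes. Lower without overlap were 5 (COX6A, beta BGIBMGA012555, d, phosphoglycerate kinase and vacuolar subunit G), which is 19.2% of the members where 21.5% of all tested genes were. Leaving out WT P2 replicate 2 gave 3 lower calls (COX6A, d and vacuolar subunit G), and leaving out WT P2 replicate 3 gave 5 (triosephosphate isomerase, NDUFC2, delta, d and g).

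In TBH ovaries limma called 0 members between the stages, also 0 at an unadjusted p under 0.05, where 10.8% of all tested genes passed. By the adjusted p it called 1.70% of all tested genes, 19 higher and 70 lower (38 and 55 with quantile normalization). The median was -0.001 over the members and -0.21 over all tested genes. Higher without overlap at P4 were COX4, gamma and the second malate dehydrogenase, 3 members, against 4.64% of all tested genes. Lower were NDUFB10, NDUFC2 and subunit g, also 3, against 11.9%. The difference of the line effect between the stages gave 0 calls among the members, with 0 at an unadjusted p under 0.05, and 0.287% of all tested genes were called. The smallest p of the members there belonged to COX6A (log2 difference 1.05 ± 0.49) and subunit d (0.44 ± 0.20), each with a limma adjusted p of 0.964. That COX4 passed at P2 and not at P4 is therefore no shown difference (log2 difference -0.47 ± 0.34, limma, adjusted p = 1.000).

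Both stage comparisons ran alongside large changes of tissue markers. Of the 3 tested ovary genes only VMP23 was called. VMP23 rose by a log2 change of 5.99 in WT and 6.295 in TBH (limma, adjusted p = 1.667e-06 and 1.456e-06). The log2 changes in WT and TBH were -1.69 and 0.305 for CBZ, and 0.29 and -0.21 for C/EBP. The muscle sum was 350.1 to 727 in WT P2 and 457 to 615 in TBH P2, under every P4 sample of its line. Of the 9 tested fat body and hemolymph genes, 3 fell in WT (vitellogenin with a log2 change of -3.62, SP1 with -3.01 and SP2 with -1.63) and 3 in TBH (30K protein 12 with -3.33, 30K protein 14 with -2.19 and PPBP2 with -1.34). SP1 and SP2 reached the filter value of 1 only at P2, and PPBP2 only in TBH P2 (1.24, 1.49 and 2.64), so their fall was built in by the filter. 30K protein 14 was 7.48, 6.51 and 3.92 in TBH P2 and otherwise reached 1 in only 1 sample (1.37). The fat body and hemolymph sum at P4 was 93.1 to 161 in WT and 124 to 242 in TBH, overlapping with P2. The hemocyte sum was 23.2 to 54.9 in WT P2, overlapping with P4, and 44.6 to 65.1 in TBH P2, above every TBH P4 sample. The 179 cuticle and trachea genes, 48 of them tested, summed to 5284 to 17007 in WT P2, 7902 to 8742 in TBH P2, 1858 to 4175 in WT P4 and 1673 to 3051 in TBH P4. Their part in the stage differences of the members was not tested.

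**Figure D5:**
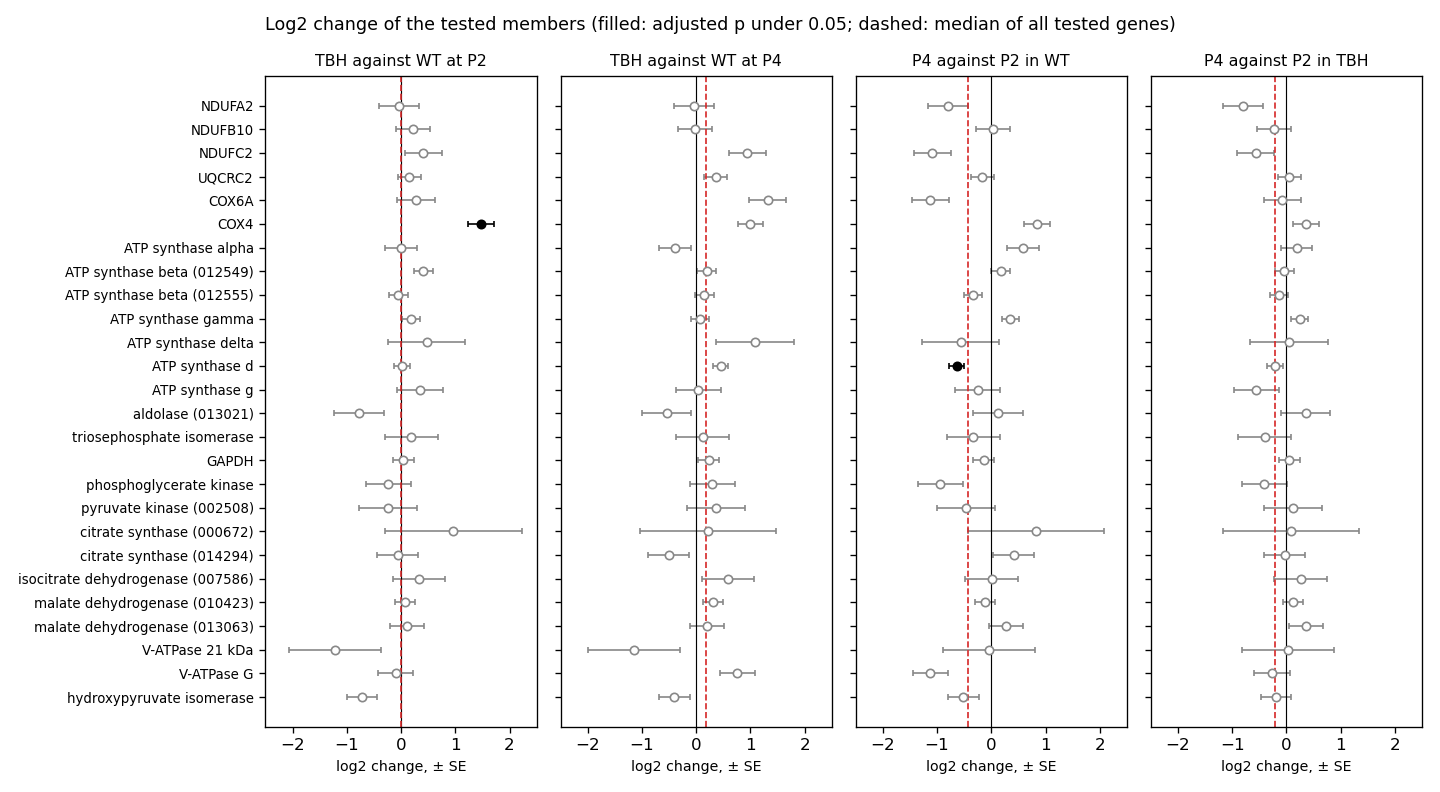
Log2 change with its standard error (x axis) of each of the 26 tested members (y axis) in 4 comparisons, from limma on log2(value + 1); filled points passed an adjusted p of 0.05 and the dashed line is the median of all tested genes. COX4 at P2 (1.47) and subunit d between the stages of WT (-0.64) are the filled points.

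Other genes that serve the same organelles and pathways were read from 9 lists that exclude the members: mitochondrial carriers, import and prohibitins, mitochondrial ribosomal proteins, further enzymes of glycolysis and of the citric acid cycle, the pentose phosphate pathway, the vacuolar pump, oxidant defence and fatty acid oxidation. They held 35 genes, of which 28 were tested. Between the lines limma called 0 of these 28 at P2 and 0 at P4. At an unadjusted p under 0.05 there were 1 at P2 and 3 at P4, beside 7.05% and 11.7% of all tested genes. Between the stages of WT 0 were higher and 2 lower, where 4.11% of all tested genes were called. Both came from the import list, in which 4 of 4 genes were tested. At an unadjusted p under 0.05 limma had 9 of the 28 there, beside 22.4% of all tested genes. Between the stages of TBH 0 were called, where 1.70% of all tested genes were. At an unadjusted p under 0.05 there were 4, beside 10.8%. The median of the 28 was -0.55 in WT and -0.19 in TBH, beside -0.42 and -0.21 over all tested genes.

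The called import genes encode chaperones of the intermembrane space that escort precursor proteins to the inner membrane. TIM10 (BGIBMGA000106) was 124, 38.8 and 71.6 in WT P2 and 4.52, 18.9 and 16.3 in WT P4. It fell in every sample, by 2.53 ± 0.59 on the log2 scale (limma, adjusted p = 0.0367). The Tim8 homolog b (BGIBMGA014607) was 542, 301 and 319 in WT P2 and 124, 209 and 159 in WT P4, again without overlap. It fell by 1.21 ± 0.30 on the log2 scale (limma, adjusted p = 0.0481). Leaving out WT P2 replicate 1 or any one WT P4 replicate ended both calls, with adjusted p from limma of 0.0549 to 0.129 for TIM10 and 0.0690 to 0.166 for the homolog; leaving out WT P2 replicate 3 ended that of TIM10 (adjusted p = 0.0577). The call of the homolog held in 4 of 15 alternatives and that of TIM10 in 7. For the homolog it was also lost with quantile normalization, equal totals, no filter, a pseudocount of 0.1, no trend and the groups compared alone (limma, adjusted p from 0.0530 to 0.133), and for TIM10 with no filter (0.0884) and the groups compared alone (0.126).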

How the data were processed

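Ovary RNA of 12 samples, 3 for each line and stage, was read from 1 deposited table. Its values are a normalized expression signal per gene with an unnamed unit, as deposited; group means deposited by the authors were not used. Per the submitters' processing notes Cufflinks and DESeq2 were among the tools, with no role given. Aligner, build and annotation: not given in the sources used here. Read counts are not listed, which leaves the depth unknown and allows no counting interval. Genes that reached a value of 1 in 3 or more samples were taken as log2(value + 1), which understates changes of low genes, and fitted in R 4.3.3 with limma 3.58.1 (1 mean per group over all 12 samples, trend). The fit was tested on simulated data. Names are the table's own; 0 of the member IDs were found in the RefSeq table, where 7 of the 8 member names were.

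The members and lists were chosen with earlier results of these data known. Named with every value were members past the threshold, the 2 with the smallest p in each comparison and the 3 with the highest listed values in each role; other members described are additions made after their values were seen. Groups came from the sample titles, and no batch is labelled. Alternatives changed scaling, filter, pseudocount, trend, weights, samples in the fit and replicate block.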

Additional observations from a re-analysis of the deposited data

How the results depend on the processing

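The 2 called members, COX4 at P2 and subunit d between the WT stages, kept their direction in every alternative run. Citrate synthase (BGIBMGA000672), not called between the WT stages at 0.83, was called at -1.21 without WT P2 replicate 2 and TBH P4 replicate 3. Higher calls at P2 numbered 0, not 1, with the fit limited to the groups compared and with the replicate block (COX4, adjusted p = 0.0943). At P4 the higher calls numbered 1 with equal totals and with the groups compared alone (COX4 both times), and 4 with sample weights, beside 1 lower (HYI). In the WT stage comparison the higher calls numbered 2 with quantile normalization, 1 with sample weights and 2 (COX4 and alpha) without those libraries, and 0 to 1 when 1 replicate was left out. The lower calls there numbered 0 with quantile normalization, without trend, with the groups compared alone and with the replicate block, 3 with sample weights, 4 without both libraries, and 0 to 5 when 1 replicate was left out. In TBH 2 were lower with sample weights.

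Counts of members without overlap, whose alternatives were chosen after seeing the data, moved too, and the shares in parentheses are those of all tested genes. With equal totals 0 were lower at P4 (5.71%), 1 was higher (3.42%) and 9 lower (22%) between the WT stages, and 1 was higher between the TBH stages (4.39%). With quantile normalization 1 was higher at P2 (4.93%), 7 at P4 (10.2%), 5 between the WT stages (9.95%) and 6 between the TBH stages (8.1%), where 1 was lower (9.8%). Without both libraries 4 of 26 were lower at P2 (15.4% against 21.5%), 5 lower at P4 (19.2% against 17.1%), and 6 higher (23.1% against 7.2%) and 10 lower (38.5% against 38.7%) between the TBH stages.

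Over all tested genes, the higher count moved by over 1.5 times in 36 of 80 pairings of comparison and alternative and the lower count in 47 of 80. Over the alternatives, higher and lower calls ranged from 11 to 65 and 6 to 72 at P2 (43 and 35 with the reported fit), 29 to 257 and 16 to 202 at P4 (59 and 42), 25 to 153 and 47 to 1037 between the WT stages (53 and 162), and 7 to 135 and 46 to 798 between the TBH stages (19 and 70). Sample weights, or leaving out both libraries, gave each highest count.

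Replicates shared only a number between groups: the correlations of their deviations ran from -0.176 to 0.0647, and 10 of 24 best matches had the same number. The replicate block left 11 higher and 10 lower at P2, 29 and 21 at P4, 31 and 70 between the WT stages and 8 and 46 between the TBH stages, and ended the calls of subunit d (adjusted p = 0.148), TIM10 (adjusted p = 0.154) and the Tim8 homolog (adjusted p = 0.148).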
